A study of Mus musculus with 6 samples.

Results

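Slc15a4 and 9 genes of Toll-like receptor signalling were followed through stem and progenitor cells of mice that had received ruxolitinib and of untreated mice. The 10 genes, of 24421 in the deposited table, are Slc15a4, Unc93b1, Tlr7, Tlr9, Tlr2, Tlr4, Cd14, Myd88, Irak4 and Traf6, taken by their symbols, and all 10 passed the filter on low counts that left 13411 genes for testing. Slc15a4 was selected on its own difference between RUX and untreated pools in these same data, so its difference is described here and given no test. The other 9 were named as its partners in the pathway, with earlier results of the same data known.

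The RUX group consisted of 3 pools (4, 5 and 6) from CByB6F1 mice given ruxolitinib (RUX), an inhibitor of the kinases JAK1 and JAK2, and the untreated group of 3 pools (1, 2 and 3) from CByB6F1 mice without it. All mice were female and 2 to 5 months old, and each pool joined the sorted Lin-CD117+ bone marrow cells of 2 to 3 mice of 1 group, so a pool is an average over animals. CByB6F1 is a hybrid mouse without a disease model, and Lin-CD117+ cells lack markers of mature blood lineages and carry KIT. Neither dose nor length of treatment is stated in the labels used here.

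Toll-like receptors recognise molecules of microbes. TLR2 and TLR4 act at the cell surface, where CD14 hands them lipid ligands, while TLR7 and TLR9 sense RNA and DNA inside endosomes, to which UNC93B1 carries them. SLC15A4 moves histidine and small peptides out of endolysosomes and is required for TLR7 and TLR9 responses in plasmacytoid dendritic cells and B cells. The adaptor MYD88, the kinase IRAK4 and the ubiquitin ligase TRAF6 pass the signal on to NF-kB and to interferon regulatory factors, and stem and progenitor cells are themselves known to respond to Toll-like receptor ligands.

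Read pairs assigned to genes totalled 46027491 to 48747137 in RUX pools and 27354768 to 38691826 in untreated pools, so the untreated pools were the shallower ones. Values are given in CPM, the usual unit of read counts relative to library size, here with TMM factors, and a floor of 3 counts amounted to 0.0595 to 0.0695 CPM in RUX pools and 0.0768 to 0.107 CPM in untreated pools. Kit, the gene of the sort antigen CD117, measured 295, 412 and 416 CPM in RUX pools 4, 5 and 6 and 409, 471 and 196 CPM in untreated pools 1, 2 and 3. RUX pool 4 and untreated pool 3 had the lowest Kit of their groups and the highest summed eosinophil markers, 241 and 249 CPM. Most of these sums was Prg2, at 207 and 214 CPM, and the other 4 pools had sums of 50.3 to 103 CPM. RUX pool 4 and untreated pool 3 also led their groups in summed neutrophil markers, at 1567 and 2490 CPM. They led too in monocyte and macrophage, plasmacytoid dendritic cell, and T and NK cell markers. In basophil and mast cell, B lymphoid, erythroid, stem cell and sort antigen markers they did not both lead. Summed neutrophil markers were lowest in untreated pool 1, at 180 CPM, and summed erythroid markers were highest in RUX pool 6, at 7999 CPM. In bulk RNA, fewer cells of a type and less RNA per cell cannot be told apart.

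Across all tested genes, edgeR's quasi-likelihood test called 0 of 13411 between RUX and untreated pools at a Benjamini-Hochberg adjusted p under 0.05, or 0.00%. Before adjustment 254 genes had p under 0.05. DESeq2 and limma-voom also called 0, with 281 and 262 genes at p under 0.05 before adjustment. Of the 9 partner genes 0 were called and 0 had an unadjusted p under 0.05 in any of the 3 tools. The 3 RUX values lay above all 3 untreated values in 2.99% of the tested genes and below them in 3.25%, together 6.24%. Of the 10 genes only Slc15a4 had separate groups, which is what it was selected on, and the groups of the other 9 overlapped.

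Slc15a4 was higher in every RUX pool than in any untreated pool. It lies on chromosome 5 (127595666 to 127617392, minus strand, mm10), with 8 exons of 2706 bases in all. Its raw counts were 1479, 1800 and 1906 in RUX pools 4, 5 and 6, against 735, 1026 and 816 in untreated pools 1, 2 and 3. On the depth-corrected scale it measured 34.3, 36.9 and 37.8 CPM in RUX pools 4, 5 and 6, against 26.3, 26.3 and 22.4 CPM in untreated pools 1, 2 and 3. The RUX pools lay close together, within 1.10-fold of each other, as did the untreated pools, within 1.17-fold. The lowest RUX pool was pool 4 and the lowest untreated pool was pool 3. The mean was 36.3 ± 1.84 CPM in RUX and 25.0 ± 2.22 CPM in untreated pools (SD, n = 3 each). The fold was 1.45 and the log2 fold change 0.54 ± 0.15 (SE). This SE comes from the data on which the gene was selected, so it is a description and cannot serve as a test. With 1 pool left out in turn, the log2 fold change of Slc15a4 was positive in all 6 cases, which the separate groups fix in advance, and it was lowest, 0.47, without untreated pool 3.

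**Figure D1:**
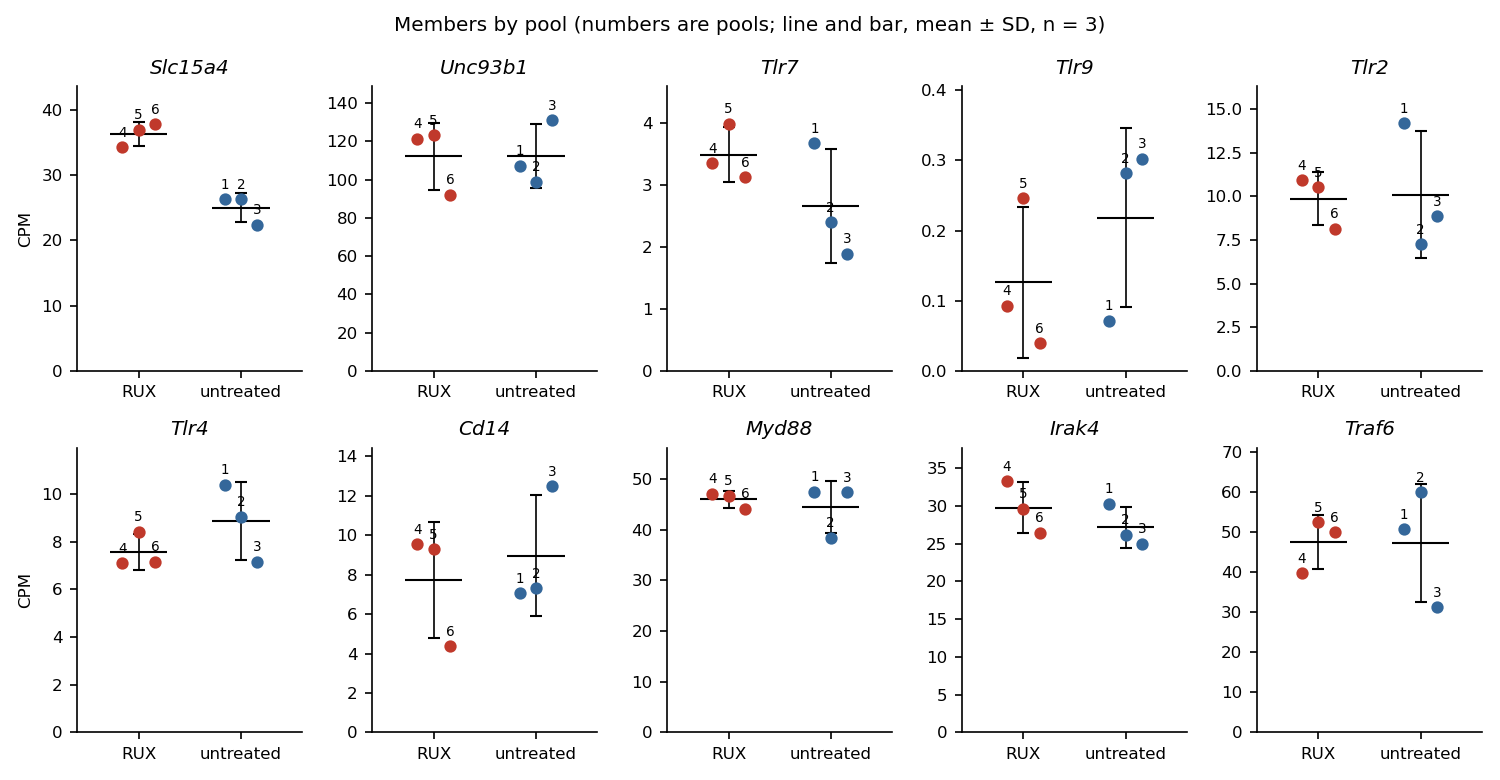
CPM of each of the 10 genes in the 3 RUX pools (red) and the 3 untreated pools (blue); small numbers name the pool, and the black line and bar give the mean and SD. Each panel has its own vertical axis from 0. The groups are separate for Slc15a4, at 34.3 to 37.8 CPM in RUX and 22.4 to 26.3 CPM in untreated pools, and overlap in the other 9 panels.

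Promoter sequence was found in the RefSeq table (GRCm38.p6, the build of the mm10 files) for 6 of the 10 genes: Slc15a4, Myd88, Irak4, Traf6, Tlr2 and Tlr9. Each window runs from 250 bases before the annotated start to 50 bases after it. The promoters of Slc15a4, the gene with separate groups, and Myd88, the adaptor shared by the receptors, are shown for comparison because they differ in the letters that the factors downstream of JAK kinases are known to read. Capitals in the Slc15a4 window mark the ETS core CCGGAA on either strand and the palindrome CTCGCGAG, the core of an element found near starts of transcription; both were added to the search after the sequence had been seen. Capitals in the Myd88 window mark TTCNNNGAA, the gamma-activated site bound by STAT dimers, and GAAANNGAA, a core of the interferon-stimulated response element, which share 3 bases there.

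Slc15a4, chr5:127617343-127617642, minus strand: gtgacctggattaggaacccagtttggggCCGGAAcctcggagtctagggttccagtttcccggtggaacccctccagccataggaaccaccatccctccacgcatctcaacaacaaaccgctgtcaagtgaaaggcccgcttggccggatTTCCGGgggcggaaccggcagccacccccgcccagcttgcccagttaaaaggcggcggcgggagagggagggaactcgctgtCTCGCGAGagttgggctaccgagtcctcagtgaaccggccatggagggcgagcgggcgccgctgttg
Myd88, chr9:119339969-119340268, minus strand: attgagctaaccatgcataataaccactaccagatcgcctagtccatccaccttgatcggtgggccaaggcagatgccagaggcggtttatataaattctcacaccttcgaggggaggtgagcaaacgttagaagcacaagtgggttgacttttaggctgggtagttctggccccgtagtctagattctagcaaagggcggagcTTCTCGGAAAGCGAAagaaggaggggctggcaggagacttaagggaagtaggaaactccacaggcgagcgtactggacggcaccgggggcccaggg

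Counted from 1 at the 5′ end of the window, of which the first 250 bases lie before the start of transcription, the Slc15a4 window held the ETS core at bases 30 to 35 and, on the other strand, 152 to 157, and the palindrome at bases 234 to 241. The palindrome was present in 0.919% of the 32851 promoters in the table and the ETS core in 14.9%. Neither TTCNNNGAA nor GAAANNGAA occurred in the Slc15a4 window, while both lay in the Myd88 window, at bases 205 to 213 and 211 to 219. They occurred in 8.30% and 8.56% of all promoters. Both strands were searched, also for the PU.1 core GAGGAAGT (3.20% of promoters) and the E-box CACGTG (7.15%). Of the other windows, Irak4 held the ETS core, Tlr9 held the PU.1 core, and Tlr2 and Traf6 held none of the 6 motifs. A match describes letters only and says nothing of binding in these cells.

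Unc93b1, the carrier of the endosomal receptors (chromosome 19, 3935186 to 3949340, plus strand), had nearly equal mean levels in RUX and untreated pools. It measured 121, 123 and 92.1 CPM in RUX pools 4, 5 and 6, against 107, 98.9 and 131 CPM in untreated pools 1, 2 and 3. The highest pool was untreated pool 3 and the lowest RUX pool 6, and the groups overlapped over most of their range. The means were 112 ± 17.5 CPM in RUX and 112 ± 16.7 CPM in untreated pools (SD, n = 3 each). The log2 fold change of Unc93b1 was −0.0016 ± 0.16 (SE; edgeR adjusted p = 1.00), and its 95% interval ran from 0.783-fold to 1.27-fold. That sign depended on single pools, since the log2 fold change was 0.12 without untreated pool 3 and 0.12 without RUX pool 6.

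The endosomal receptor genes were rare transcripts in these cells. Tlr7, which encodes a sensor of single-stranded RNA (chromosome X, 167304926 to 167330571, minus strand), measured 3.36, 4.00 and 3.13 CPM in RUX pools 4, 5 and 6, against 3.68, 2.41 and 1.89 CPM in untreated pools 1, 2 and 3. Untreated pool 1 lay among the RUX pools, and the other 2 untreated pools lay below all of them. For Tlr7 the log2 fold change was 0.40 ± 0.30 (SE; edgeR adjusted p = 1.00), with a 95% interval from 0.848-fold to 2.06-fold. It was 0.70 without untreated pool 1 and 0.21 without untreated pool 3, so this value is moved by single pools.

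Tlr9, which encodes a sensor of unmethylated CpG DNA (chromosome 9, 106222598 to 106226876, plus strand), was at the limit of detection. It had 4, 12 and 2 counts in RUX pools 4, 5 and 6, against 2, 11 and 11 counts in untreated pools 1, 2 and 3. One pool of each group was under the floor of 3 counts, and high and low pools occurred in both groups. The means were 0.126 ± 0.107 CPM in RUX and 0.218 ± 0.128 CPM in untreated pools (SD, n = 3 each). The fitted log2 fold change of Tlr9, −0.82 ± 0.81 (SE), was −1.74 without RUX pool 5 and −0.38 without RUX pool 6. The 95% interval of its fold ran from 0.170 to 1.90 (edgeR adjusted p = 1.00), a wide range at 2 to 12 counts per pool.

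The surface receptor genes Tlr2 and Tlr4 were more abundant than Tlr7 and Tlr9, and their values overlapped between the groups. Tlr2, a receptor for bacterial lipoproteins (chromosome 3, 83836272 to 83841608, minus strand), measured 10.9, 10.5 and 8.15 CPM in RUX pools 4, 5 and 6, against 14.2, 7.24 and 8.84 CPM in untreated pools 1, 2 and 3. The highest and the lowest of the 6 pools were both untreated. The log2 fold change of Tlr2 was −0.03 ± 0.25 (SE; edgeR adjusted p = 1.00), and it was 0.29 without untreated pool 1 and 0.09 without RUX pool 6.

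Tlr4, the lipopolysaccharide receptor (chromosome 4, 66827811 to 66842796, plus strand), measured 7.11, 8.43 and 7.16 CPM in RUX pools 4, 5 and 6, against 10.4, 9.06 and 7.17 CPM in untreated pools 1, 2 and 3. Untreated pools 1 and 2 were the highest of the 6, while untreated pool 3 lay among the RUX pools. For Tlr4 the log2 fold change was −0.23 ± 0.21 (SE; edgeR adjusted p = 1.00), with a 95% interval from 0.626-fold to 1.16-fold, and it was negative in every setting run, from −0.36 without untreated pool 3 to −0.10 without untreated pool 1.

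Cd14 (chromosome 18, 36725064 to 36726815, minus strand) encodes the co-receptor that passes lipopolysaccharide to TLR4 and marks monocytes, and it varied more within the groups than between them. It measured 9.55, 9.29 and 4.36 CPM in RUX pools 4, 5 and 6, against 7.07, 7.32 and 12.5 CPM in untreated pools 1, 2 and 3. RUX pool 6 was the lowest and untreated pool 3 the highest, a 2.86-fold range. The same 2 pools were the lowest and highest for the summed monocyte and macrophage markers, which stood at 1203, 1031 and 722 CPM in RUX pools 4, 5 and 6 and at 1141, 858 and 1696 CPM in untreated pools 1, 2 and 3, and their part in the values of Cd14 was not tested. For Cd14 the log2 fold change was −0.22 ± 0.30 (SE; edgeR adjusted p = 1.00), and it was 0.10 without untreated pool 3 and 0.07 without RUX pool 6.

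The shared signalling genes were more abundant per length than the receptor genes, and they differed in how much they varied between pools. Myd88 (chromosome 9, 119335988 to 119340040, minus strand) measured 47.1, 46.7 and 44.1 CPM in RUX pools 4, 5 and 6, against 47.5, 38.4 and 47.4 CPM in untreated pools 1, 2 and 3. Its coefficient of variation over the 6 pools, 7.83%, was the smallest of the 10 genes, and only untreated pool 2 stood lower than the rest. The log2 fold change of Myd88 was 0.05 ± 0.15 (SE; edgeR adjusted p = 1.00), with a 95% interval from 0.832-fold to 1.29-fold, and it was −0.04 without untreated pool 2.

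Irak4, the first kinase recruited by MYD88 (chromosome 15, 94543660 to 94568316, plus strand), measured 33.2, 29.6 and 26.4 CPM in RUX pools 4, 5 and 6, against 30.3, 26.2 and 25.0 CPM in untreated pools 1, 2 and 3. The pools of both groups were interleaved. For Irak4 the log2 fold change was 0.13 ± 0.16 (SE; edgeR adjusted p = 1.00), with a 95% interval from 0.866-fold to 1.39-fold. It was 0.05 without RUX pool 4 and 0.22 without untreated pool 1.

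Traf6, the ubiquitin ligase downstream of IRAK4 (chromosome 2, 101678420 to 101701668, plus strand), measured 39.7, 52.4 and 49.96 CPM in RUX pools 4, 5 and 6, against 50.6, 59.9 and 31.3 CPM in untreated pools 1, 2 and 3. The highest and the lowest pools were both untreated, and RUX pool 4 and untreated pool 3 were the lowest of their groups. The log2 fold change of Traf6 was 0.0034 ± 0.21 (SE; edgeR adjusted p = 1.00), and leaving out 1 pool moved it between −0.22 without untreated pool 3 and 0.22 without untreated pool 2.

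Among the 9 partner genes the log2 fold change was positive in 4 and negative in 5, and its median was −0.0016. Over all 13411 tested genes 49.2% were positive and the median was −0.0036. The upper ends of the 95% intervals of Unc93b1, Myd88, Irak4, Traf6, Tlr2, Tlr4 and Cd14 lay between 1.16-fold and 1.42-fold and the lower ends between 0.547-fold and 0.866-fold, and the intervals of Tlr7 and Tlr9 reached higher. The difference between Slc15a4 and each partner was not tested, because Slc15a4 was selected on its fold.

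**Figure D2:**
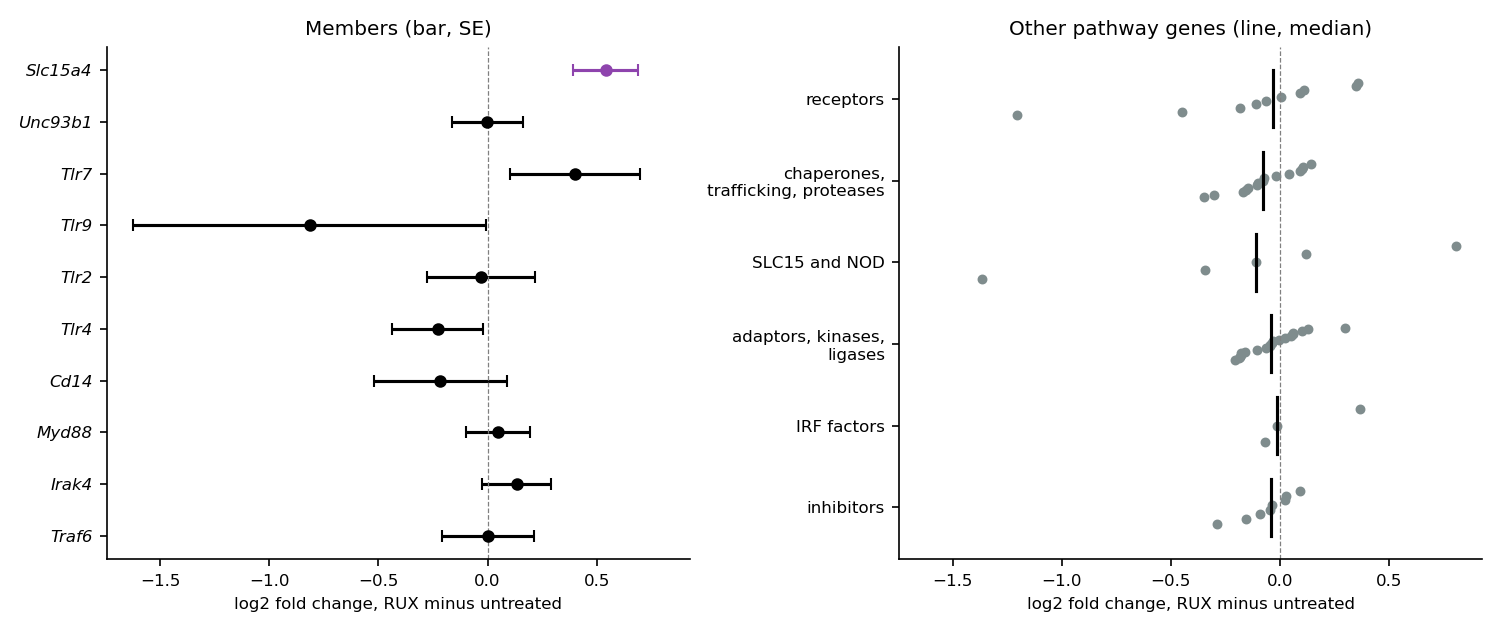
Log2 fold change (RUX minus untreated) of the 10 genes, with bars of 1 SE (left, Slc15a4 in purple), and of the 61 tested genes in 6 lists of other pathway genes, as grey points with the list median as a black line (right). Slc15a4 stands at 0.54, Unc93b1, Tlr2, Myd88 and Traf6 lie near 0, and the widest bar is that of Tlr9. The bar of Slc15a4 is a description and cannot serve as a test, since the gene was selected on this difference.

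Compared per length, the 10 genes spanned the range from well expressed to barely detected. Levels are CPM per kb of exon, as means ± SD over the 6 pools. Unc93b1 stood first at 49.6 ± 6.75 CPM per kb, above 84.55% of the tested genes, followed by Myd88 at 23.7 ± 1.86 CPM per kb. Both were separate from each other and from the next gene in all 6 pools. Slc15a4 at 11.3 ± 2.39, Irak4 at 10.1 ± 1.11 and Traf6 at 7.65 ± 1.65 CPM per kb followed, and each overlapped in range with its neighbour. Within the groups Slc15a4 averaged 13.4 ± 0.679 CPM per kb in RUX and 9.23 ± 0.821 CPM per kb in untreated pools (SD, n = 3 each), and it was higher than Irak4 in 4 of 6 pools.

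The surface receptor genes followed, with Cd14 at 5.03 ± 1.66, Tlr2 at 3.50 ± 0.871 and Tlr4 at 2.14 ± 0.347 CPM per kb. Cd14 overlapped with both Traf6 and Tlr2, and the ranges of Tlr2 and Tlr4 overlapped although Tlr2 was higher in all 6 pools. The endosomal receptor genes closed the order, with Tlr7 at 0.774 ± 0.199 and Tlr9 at 0.0496 ± 0.0337 CPM per kb, each separate from its neighbour above in all 6 pools. Unc93b1 thus stood far above Tlr7 and Tlr9, whose levels lay above only 18.0% and 0.679% of the tested genes. None of the exon bases of the 10 genes was shared with another gene of the annotation (0 bases each). Pairs that span neighbouring genes or map to several places were not examined.

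**Figure D3:**
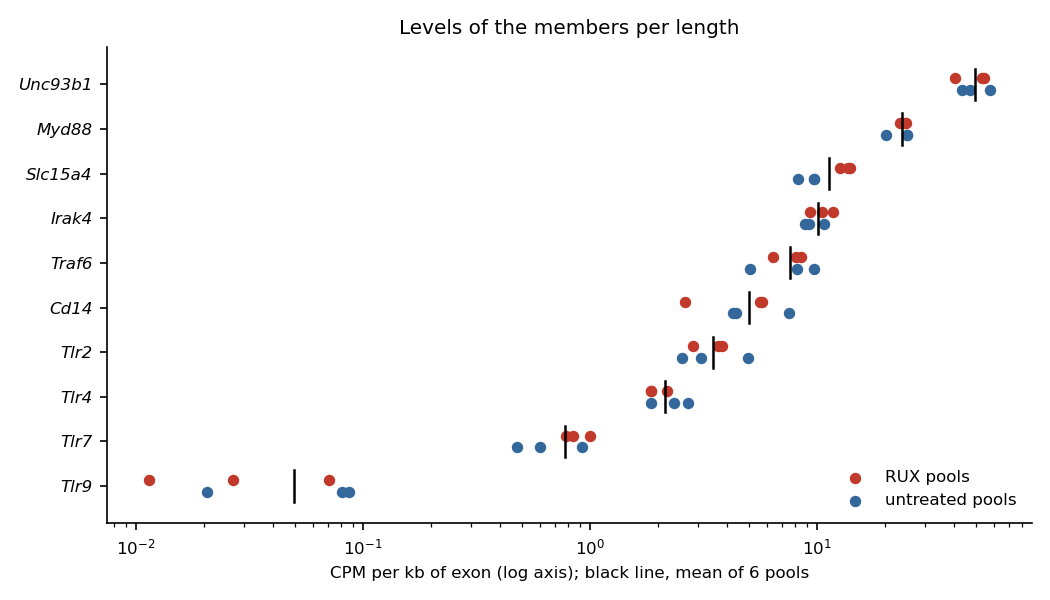
Level of each of the 10 genes in CPM per kb of exon, on a log axis, for RUX pools (red, upper row of each gene) and untreated pools (blue, lower row), with the mean of the 6 pools as a black line. Genes are ordered from Unc93b1 at 49.6 to Tlr9 at 0.0496 CPM per kb.

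Other genes of the pathway, taken from 6 lists, were not called either. Of 69 listed symbols 67 were in the table and 61 were tested, and edgeR called 0 of them in either direction, and DESeq2 and limma-voom also called 0. Before adjustment, p was under 0.05 for 0 genes in edgeR, 0 in DESeq2 and 1, Tlr13, in limma-voom. The log2 fold change was positive for 23 of the 61 and negative for 38, beside 49.2% positive over all tested genes. Its median was −0.05, beside −0.0036 over all tested genes. RUX values lay above all untreated values for 0 of the 61, beside 2.99% of all tested genes. They lay below all untreated values for 2, Tlr13 and Ap3m1, beside 3.25% of all tested genes.

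Of 10 tested receptors and co-receptors, 5 were positive and 5 negative. Ly86, which encodes the partner of the receptor-like protein CD180, was the most abundant of them per length and measured 53.4 ± 20.5 CPM in RUX and 60.6 ± 17.1 CPM in untreated pools (SD, n = 3 each). Ly96, which encodes MD-2, the lipopolysaccharide-binding partner of TLR4, measured 4.48 ± 1.22 CPM in RUX and 4.68 ± 0.375 CPM in untreated pools. The lipopolysaccharide-binding protein gene Lbp measured 18.7 ± 2.21 CPM in RUX and 17.6 ± 8.79 CPM in untreated pools. Tlr13, a mouse sensor of bacterial ribosomal RNA, named after its values were seen, measured 0.263 ± 0.151 CPM in RUX and 0.613 ± 0.0817 CPM in untreated pools, and its fitted log2 difference was −1.203 ± 0.56 (SE; adjusted p = 1.00 by edgeR).

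Of 15 tested genes for chaperones, trafficking proteins and the proteases that cut endosomal receptors, 5 were positive and 10 negative. Hsp90b1, which encodes the chaperone gp96 that folds Toll-like receptors, measured 723 ± 48.7 CPM in RUX and 678 ± 60.2 CPM in untreated pools (SD, n = 3 each). Ctsb, the gene of the lysosomal protease cathepsin B, measured 306 ± 29.4 CPM in RUX and 298 ± 30.9 CPM in untreated pools. Of the subunits of AP-3, the adaptor complex that sorts cargo to lysosome-related organelles, Ap3s1 measured 286 ± 63.9 CPM in RUX and 316 ± 87.2 CPM in untreated pools. Ap3m1 measured 57.0 ± 1.25 CPM in RUX and 63.5 ± 4.66 CPM in untreated pools, separate by a narrow margin, and its fitted log2 difference was −0.16 ± 0.14 (SE; adjusted p = 1.00 by edgeR).

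The relatives of Slc15a4 were scarce. Of 5 tested SLC15 transporters and NOD receptor genes, 2 were positive and 3 negative. Slc15a2, which encodes the peptide transporter PEPT2, measured 2.54 ± 1.34 CPM in RUX and 1.47 ± 0.970 CPM in untreated pools (SD, n = 3 each), and its fitted log2 difference of 0.80 ± 0.53 (SE; adjusted p = 1.00 by edgeR) came with overlapping groups. Ripk2, the kinase used by NOD receptors, measured 11.96 ± 1.08 CPM in RUX and 11.01 ± 0.479 CPM in untreated pools. Nod1, a sensor of bacterial peptidoglycan fragments, measured 4.97 ± 1.202 CPM in RUX and 5.36 ± 1.86 CPM in untreated pools.

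Of 20 tested adaptors, kinases and ubiquitin enzymes, 7 were positive and 13 negative. Irak1, a kinase phosphorylated by IRAK4, measured 150 ± 6.98 CPM in RUX and 150 ± 16.9 CPM in untreated pools (SD, n = 3 each). Ube2n and Ube2v1, whose products build ubiquitin chains together with TRAF6, stood at −0.05 and 0.02 on the same log2 scale. Among the 3 interferon regulatory factor genes, Irf3 and Irf5 stood at −0.07 and −0.01. Irf7, the factor of interferon production after TLR7 and TLR9 signalling, measured 11.5 ± 1.75 CPM in RUX and 8.91 ± 1.48 CPM in untreated pools, and its fitted log2 difference was 0.37 ± 0.20 (SE; adjusted p = 1.00 by edgeR), with overlapping groups. Of 8 tested inhibitors of the pathway 3 were positive and 5 negative, and the most abundant ones per length, Tollip, Sigirr and Rnf216, stood at −0.09, 0.02 and 0.09.

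The genes with the pool profile nearest to that of Slc15a4 came from outside the pathway. Likeness was measured as the root mean square difference between profiles of log2(CPM + 1) centred on each gene's mean over the 6 pools, among 9911 genes with a mean of at least 5 CPM. The 5 nearest were Phf13 at 0.0719, Ankrd9 at 0.0893, Nfat5 at 0.100, Tmem115 at 0.101 and Nt5dc3 at 0.109, where the median over all genes was 0.325. They shared with Slc15a4 a higher level in all RUX pools and the lowest level in untreated pool 3. Phf13, which encodes a chromatin-binding protein, measured 8.78, 9.06 and 9.68 CPM in RUX pools 4, 5 and 6, against 7.04, 7.37 and 5.90 CPM in untreated pools 1, 2 and 3. Nfat5, which encodes the transcription factor of the osmotic stress response, measured 9.43, 10.4 and 9.20 CPM in RUX pools 4, 5 and 6, against 7.11, 8.01 and 5.58 CPM in untreated pools 1, 2 and 3.

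None of the partner genes was near Slc15a4 by this measure. Irak4 was the nearest of them at 0.247 and rank 1117, followed by Myd88 at 0.287 and rank 2843. Unc93b1 stood at 0.366 and rank 6928, and Cd14 was the farthest of those compared, at 0.598 and rank 9802. Tlr7 and Tlr9 were under the minimum level and were not ranked. As Slc15a4 was selected on its separation between the groups, genes near it show that separation too, and the ranks are a description of 6 pools.

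**Figure D4:**
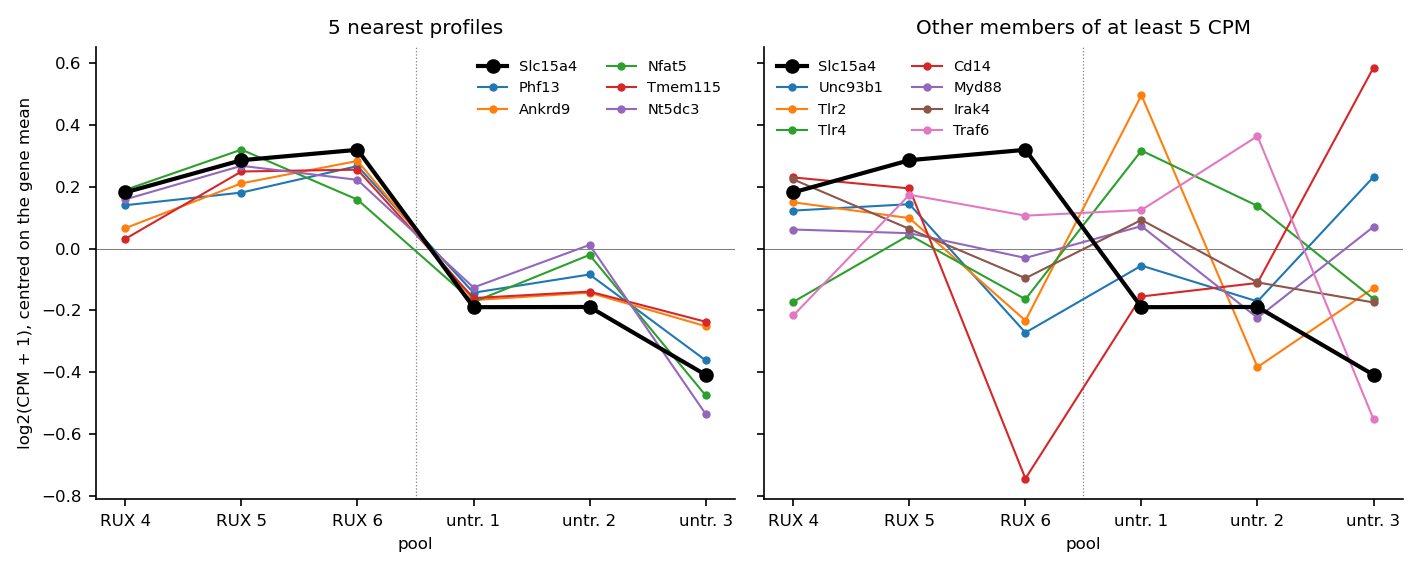
Log2(CPM + 1) of Slc15a4 (black) in each pool, centred on its mean over the 6 pools, with the 5 genes of nearest profile (left) and the 7 other genes of the set with a mean of at least 5 CPM (right); RUX pools are left of the dotted line and untreated pools right of it. The nearest genes follow Slc15a4 closely, at differences of 0.0719 to 0.109, while the pathway genes go up and down in other pools.

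Markers of other cell types differed between pools, and their summed levels overlapped between the groups for 9 of 10 lists. All but 1 listed symbol, in the neutrophil list, were in the table, and every marker found had a count in at least 1 pool. Markers of hematopoietic stem cells, led by Meis1 and Hlf, were the exception, with sums of 265, 290 and 268 CPM in RUX pools 4, 5 and 6 and 262, 255 and 163 CPM in untreated pools 1, 2 and 3. This held for the sum, to which the abundant genes contribute most. As mean log2 deviations over the list, which weight its genes equally, the groups overlapped, with 0.07 in RUX pool 6 against 0.09 in untreated pool 1. Mecom and Fgd5, named after their values were seen, were highest in untreated pool 1, and Slamf1 in untreated pool 2. The part of these markers in the values of Slc15a4 was not tested. Without untreated pool 3, in which their sum was lowest, the log2 fold change of Slc15a4 was 0.47.

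The sums of the other lists are given as ranges over the pools. Plasmacytoid dendritic cell markers, led by Ly6c2 (also a monocyte marker) and Tcf4, stood at 327 to 587 CPM in RUX and 328 to 579 CPM in untreated pools. Over the 6 pools Ly6c2 measured 94.4 to 372 CPM and Tcf4 82.4 to 118 CPM. Siglech, Cd300c, Pacsin1 and Klk1 of the same list did not exceed 1.59 CPM in any pool. The sum therefore rests on few of its genes and is no measure of how much of this cell type was present. B lymphoid markers, led by Igll1 and Cd79a, stood at 304 to 456 CPM in RUX and 415 to 471 CPM in untreated pools.

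The summed neutrophil and eosinophil markers had the widest ranges of the 10 lists relative to their lowest pool. Neutrophil markers, led by S100a8 and S100a9, stood at 376 to 1567 CPM in RUX and 180 to 2490 CPM in untreated pools. Monocyte and macrophage markers were led by Lyz2 and F13a1, eosinophil markers by Prg2 and Siglecf. Eosinophil markers stood at 59.7 to 241 CPM in RUX and 50.3 to 249 CPM in untreated pools, and basophil and mast cell markers, led by Gata2 and Cpa3, at 259 to 388 CPM in RUX and 293 to 314 CPM in untreated pools. T and NK cell markers, led by Nkg7 and Lck, stood at 241 to 435 CPM in RUX and 228 to 395 CPM in untreated pools. Most of that sum was Nkg7, at 187 to 403 CPM, while Cd3e, Cd3d and Cd3g did not exceed 2.59 CPM in any pool. Erythroid markers, led by Car2 and Car1, stood at 5452 to 7999 CPM in RUX and 5803 to 6729 CPM in untreated pools. The sort antigens and progenitor markers, led by Cd34 and Kit, stood at 1075 to 1251 CPM in RUX and 818 to 1340 CPM in untreated pools.

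**Figure D5:**
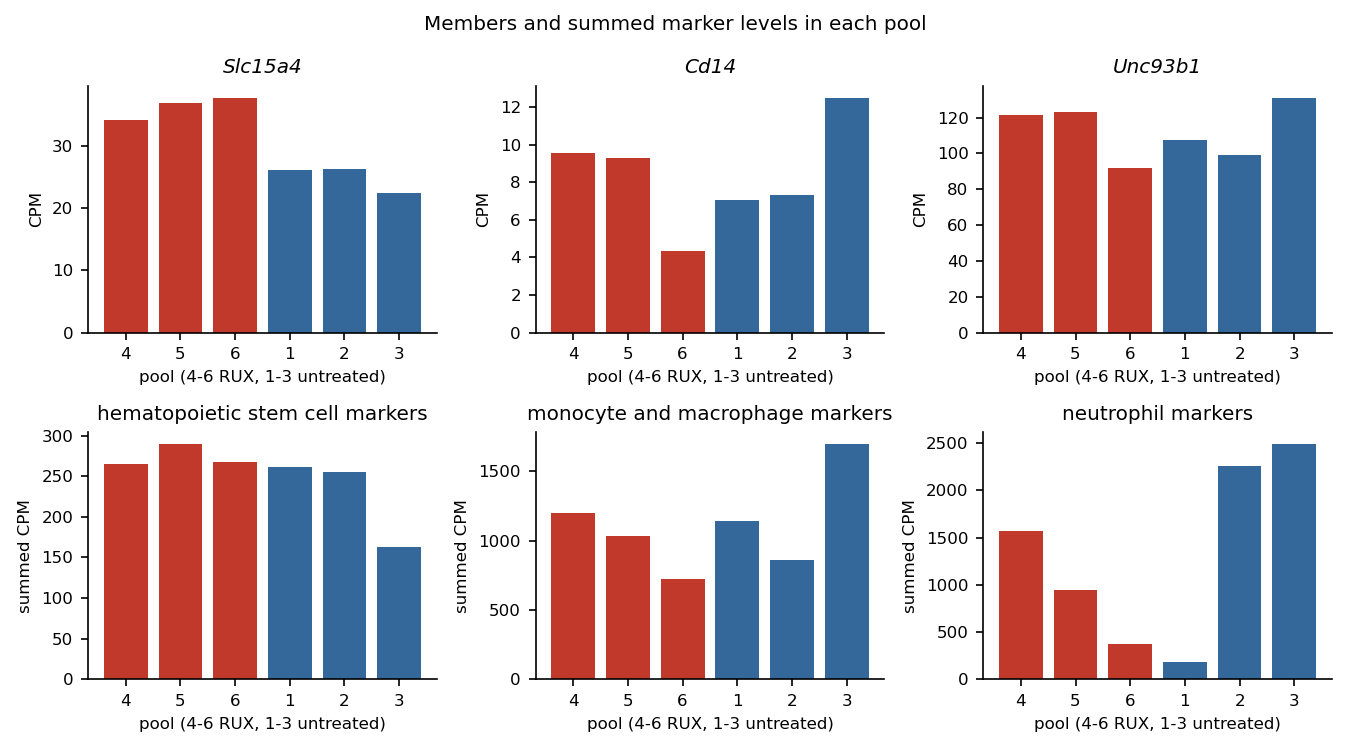
CPM of Slc15a4, Cd14 and Unc93b1 (top) and summed CPM of stem cell, monocyte and macrophage, and neutrophil markers (bottom) in RUX pools 4 to 6 (red) and untreated pools 1 to 3 (blue). Cd14, Unc93b1 and the monocyte and macrophage markers are all highest in untreated pool 3 and lowest in RUX pool 6, where Slc15a4 is lowest and highest.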

How the data were processed

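RNA of sorted Lin-CD117+ cells was made into libraries with the SMART-Seq mRNA LP kit, per the labels' protocols. STAR (version not stated) aligned the reads to mm10, per the submitters' processing notes. The authors deposited unnormalized counts, 1 per read pair and gene, with exon lengths, from featureCounts 2.0.3 with the UCSC mm10 annotation, per the file headers. No strand or multi-mapping option was set in the recorded command.

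Library names in the column headers tied columns to pools. Pool numbers are not shared between the groups and nothing pairs the pools, and p-values measure the spread between pools of different mice. With edgeR 4.0.16 (R 4.3.3), genes were kept by filterByExpr and libraries scaled by TMM, and RUX was tested against untreated with the two-sided quasi-likelihood test, adjusted over all 13411 tested genes (Benjamini-Hochberg, threshold 0.05). SEs were derived from each log2 fold change and the F statistic. Alternatives were other scalings and filters, robust fitting, DESeq2 1.42.0, limma-voom 3.58.1, removal of Rn45s and Lars2, and pools left out. Floors of 3 counts cover counting error only, as no molecular identifiers are stated for these amplified libraries.

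Members, lists, motifs and alternatives were chosen with earlier results of these data known. Besides the members, the rule named the 3 most abundant genes per length of each pathway list, its genes of at least 1 CPM without overlap, the 5 genes nearest to Slc15a4 in profile, leaving out predicted symbols, and the 2 most abundant markers of each cell type.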

Additional observations from a re-analysis of the deposited data

How the results depend on the processing

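With all 6 pools, the 8 other scalings, filters and tests kept the log2 fold change of Slc15a4 between 0.54 and 0.55, and with pools left out it was 0.47 to 0.59. None of the 9 partner genes was called in any setting, with Tlr9 not tested at a minimum of 1 CPM in 3 pools. Over all genes, 14 were called when low counts were not filtered. The sign of Unc93b1 changed with DESeq2 size factors (0.0075), upper-quartile scaling (0.0075), all genes kept (0.0065), that minimum (0.0012), DESeq2 (0.0075) and removal of Rn45s and Lars2 (0.0083), and that of Tlr2 with limma-voom (0.040), all values near 0. With 1 pool left out in turn, the log2 fold change ranged from −0.077 to 0.12 for Unc93b1, −0.21 to 0.29 for Tlr2, −0.39 to 0.10 for Cd14, −0.22 to 0.22 for Traf6 and −0.036 to 0.10 for Myd88. Without untreated pool 3 and RUX pool 4 together it was 0.066 for Unc93b1, −0.0057 for Irak4 and −0.11 for Traf6, from fewer pools. Fewer pools also separate more genes by construction: 1497 to 2856 of all genes and 1 to 4 of the 10 had no overlap with 1 pool left out, and 4367 and 2 with both left out, against 837 and 1 with all pools. In the order of levels, TPM left all 10 places as they were, and CPM without division by length left 4. Of the 5 genes nearest to Slc15a4, 2 were named again at a minimum of 1 CPM and 3 with profiles scaled to equal spread. Depth limits Tlr9 most, with 2 to 12 counts per pool.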
